A study of Mus musculus with 18 samples.

Results

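The 2′-5′-oligoadenylate synthetase (OAS) family was followed in bone marrow-derived macrophages (BMDMs) of C57BL/6 (B6) mice and of the Sjögren's syndrome susceptible strain C57BL/6.NOD-Aec1Aec2 (SjSS), a B6 strain that carries intervals of the NOD genome. The members were the table rows named Oas1a, Oas1b, Oas1c, Oas1g, Oas2, Oas3, Oasl1 and Oasl2, chosen by gene name. All 8 were found among the 20615 genes of the table and all 8 passed the filter on low counts that left 15789 genes. RNA was sequenced from 18 samples in 6 groups of 3. In each strain, BMDMs were left unstimulated (control), fed apoptotic cells (ACs), or treated with CpG DNA, a ligand of the endosomal receptor TLR9 and the study's other inflammatory stimulus. The question was whether macrophages of the model strain respond differently to ACs. The donors were female mice of 7 to 12 weeks, and their marrow was grown for 7 days in medium with L929 supernatant as the source of M-CSF. ACs were thymocytes killed with dexamethasone, given at 5 per BMDM for 2 h, with 3 h more after washing as the labels give it (the study's methods give a longer time), and CpG was given at 1 µM for 6 h. Whether the incubations with AC and CpG were equal in length is therefore uncertain. The strain of the thymocytes is not given in the labels. The study's methods took thymi from both strains, and call the thymocytes syngeneic only for a separate cytokine assay. If the ACs here were matched to the macrophages by strain, the strain of the ACs and that of the macrophages cannot be told apart.

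OAS enzymes are interferon-induced sensors. On binding double-stranded RNA they join ATP into short 2′-5′-linked adenylate chains (2-5A), a second messenger of antiviral defence. Their genes are classical targets of ISGF3, a transcription factor complex with Stat2 and Irf9 that assembles downstream of type I interferon and binds the interferon-stimulated response element (ISRE) in promoters. In the mouse the Oas1 gene is multiplied into a cluster, and the Oas-like proteins part from the enzymes. Oasl1 makes no 2-5A and is known to hold back translation of Irf7, the transcription factor that amplifies interferon, whereas mouse Oasl2 can make 2-5A.

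All 8 genes lie on chromosome 5 of mm10. Oas2 (120730333 to 120749853), Oas3 (120753098 to 120777661), Oas1c (120800194 to 120812514), Oas1g (120876142 to 120887613) and Oas1a (120896256 to 120907521) are on the minus strand of 1 cluster, and Oas1b (120812635 to 120824163) is on its plus strand. Oasl2 (114896936 to 114912234) and Oasl1 (114923240 to 114937915) stand side by side on the plus strand, away from that cluster. Oas1b is annotated as a polymorphic pseudogene, because many laboratory strains carry a truncated copy.

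The promoters are shown because 4 members of the Oas1 cluster hold the same run of letters upstream of their starts. Of these, Oas1a, Oas1b and Oas1g rose with both stimuli in both strains, though by unlike amounts, and Oas1c moved least. The windows come from the RefSeq promoter entries of GRCm38.p6, the assembly that mm10 is, and are written 5′ to 3′ on the strand of the gene, with the matches to the ISRE core letters in capitals. The letters searched were GAAANN followed directly by GAAA, where N is any base. Both strands were searched, overlapping matches included, over the 250 bases before each start. In the Oas1 genes 2 overlapping matches merge into 1 run of 16 bases. Entries were found for 6 of the 8 members, not for Oas1b and Oas2, and 4 of those 6 held the letters. Across all 32851 promoter windows of that length, 2.98% held them.
Oas1a: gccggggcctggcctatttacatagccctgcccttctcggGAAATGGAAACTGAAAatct
Oas1g: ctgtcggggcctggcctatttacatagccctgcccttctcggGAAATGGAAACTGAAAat
Oas1b: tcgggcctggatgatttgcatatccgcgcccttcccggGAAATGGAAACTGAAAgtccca
Oas1c: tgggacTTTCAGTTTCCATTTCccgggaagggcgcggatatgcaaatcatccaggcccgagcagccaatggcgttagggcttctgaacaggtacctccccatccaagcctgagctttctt
Oas3: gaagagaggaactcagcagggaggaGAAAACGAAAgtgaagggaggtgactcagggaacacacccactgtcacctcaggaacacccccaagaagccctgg
The Oas1a window is chr5:120907526-120907585 and its run lies 20 to 5 bases before the start. The Oas1g window is chr5:120887614-120887673, with the run 18 to 3 bases before the start. The Oas3 window is chr5:120777660-120777759, with its single match 75 to 66 bases before the start. Oas1b and Oas1c are head to head, with 120 bases between the starts, so that 1 stretch of DNA is the upstream sequence of both. The Oas1c window, chr5:120812515-120812634 on the minus strand, holds the run on the opposite strand, 114 to 99 bases before the start. The Oas1b window, chr5:120812575-120812634 on the plus strand, was read as the reverse complement of the Oas1c entry, and there the run lies 22 to 7 bases before the start. The run GAAATGGAAACTGAAA is identical in Oas1a, Oas1g and Oas1b and, on the other strand, in Oas1c. The windows of Oasl1 and Oasl2 held no match to these letters. A match is a description of letters and not of a bound site.

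Levels are given as CPM, the gene's counts per 1000000 counts of a library whose total was scaled by the trimmed mean of M values (TMM), and every mean is of 3 samples with its SD. The study's methods state 3 mice per strain. The labels do not say whether 1 mouse gave the control, AC and CpG samples of a number. A gene was called where the quasi-likelihood test of edgeR, adjusted by Benjamini-Hochberg over all 15789 genes, gave an adjusted p under 0.05 and the log2 fold change was over 1.3 in size, the study's threshold. All p-values below are of that test. Library totals ran from 30688336 to 57139662 counts, and the summed counts of a member over the 18 samples ran from 5243 for Oas1c to 375386 for Oasl1. The 8 macrophage markers summed to between 15105 and 23748 CPM in every library. Of 12 thymocyte and T cell markers, Cd4 made up most of a sum of 4.37 to 18.1 CPM, and Cd3d, Cd3e and Cd3g never averaged above 0.11 CPM. The 5 B cell markers summed to 9.41 to 26.8 CPM, the 3 neutrophil markers present of 6 to 2.24 to 12.7 CPM, and the 5 dendritic cell markers to 0.8 to 3.57 CPM. In these bulk samples, fewer cells that express a gene and less RNA per cell cannot be told apart.

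Oas1a and Oas1g need 1 reservation. Of the 100-base windows of the Oas1a transcript, 40.87% occur letter for letter in Oas1g, and their coding sequences are 96.73% identical. The authors' counting divided shared reads by estimation, so the split between these 2 genes is uncertain. No other member shared a 100-base window with another Oas gene, and every comparison was repeated with the 6 Oas1 rows of the table summed.

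In unstimulated BMDMs the family was higher in SjSS than in B6. By adjusted p alone 7 of the 8 members were higher and none was lower, against 9.04% of all genes tested. With the fold threshold only Oasl1 was called, against 1.3% of all genes. The median log2 difference of the 8 members was 0.82, beside -0.01 over all genes tested. The samples of the 2 strains did not overlap for any of the 8 members, including Oas1c, whose difference did not pass the test. How many of all genes tested separate like this was not counted, so this describes the samples and is no further test.

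Oasl1 showed the widest resting difference of the members. Its levels were 5.09, 6.01 and 4.69 CPM in the B6 controls and 16.7, 21.6 and 16.0 CPM in the SjSS controls. The lowest SjSS sample thus lay well above the highest B6 sample, and the log2 difference was 1.78 (SE 0.24, adjusted p = 4.53e-05). Oasl2 measured 44.9, 47.0 and 53.8 CPM in B6 and 88.0, 115 and 92.7 CPM in SjSS, a log2 difference of 1.02 (SE 0.17, adjusted p = 0.000322).

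The enzymes Oas2 and Oas3, which hold several OAS units in 1 protein, were higher at rest in SjSS as well. Oas2 measured 24.5, 23.2 and 32.9 CPM in B6 and 51.3, 55.1 and 52.6 CPM in SjSS, a log2 difference of 0.98 (SE 0.17, adjusted p = 0.000396). Oas3 averaged 60.5 ± 10.7 CPM (SD, n = 3) in B6 and 100.2 ± 9.66 CPM in SjSS, a log2 difference of 0.73 (adjusted p = 0.0135). Of the Oas1 genes, Oas1a differed by 0.61 (adjusted p = 0.00173), Oas1g by 0.80 (adjusted p = 0.00427) and Oas1b by 0.83 (adjusted p = 0.0159) on the log2 scale. With 1 sample left out, 5 to 7 members passed, and those lost were Oas1b without B6 control replicate 2 (adjusted p = 0.0725) or SjSS control replicate 2 (adjusted p = 0.0546), and Oas3 without B6 control replicate 1 (adjusted p = 0.0676) or SjSS control replicate 2 (adjusted p = 0.0541). Oas1c averaged 5.43 ± 0.122 CPM in B6 and 6.59 ± 0.738 CPM in SjSS, and its log2 difference of 0.28 had an adjusted p of 0.192. Summed, the Oas1 rows gave 63.7 ± 7.20 CPM in B6 and 98.9 ± 6.54 CPM in SjSS, a log2 difference of 0.63 (adjusted p = 0.00191).

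**Figure D1:**
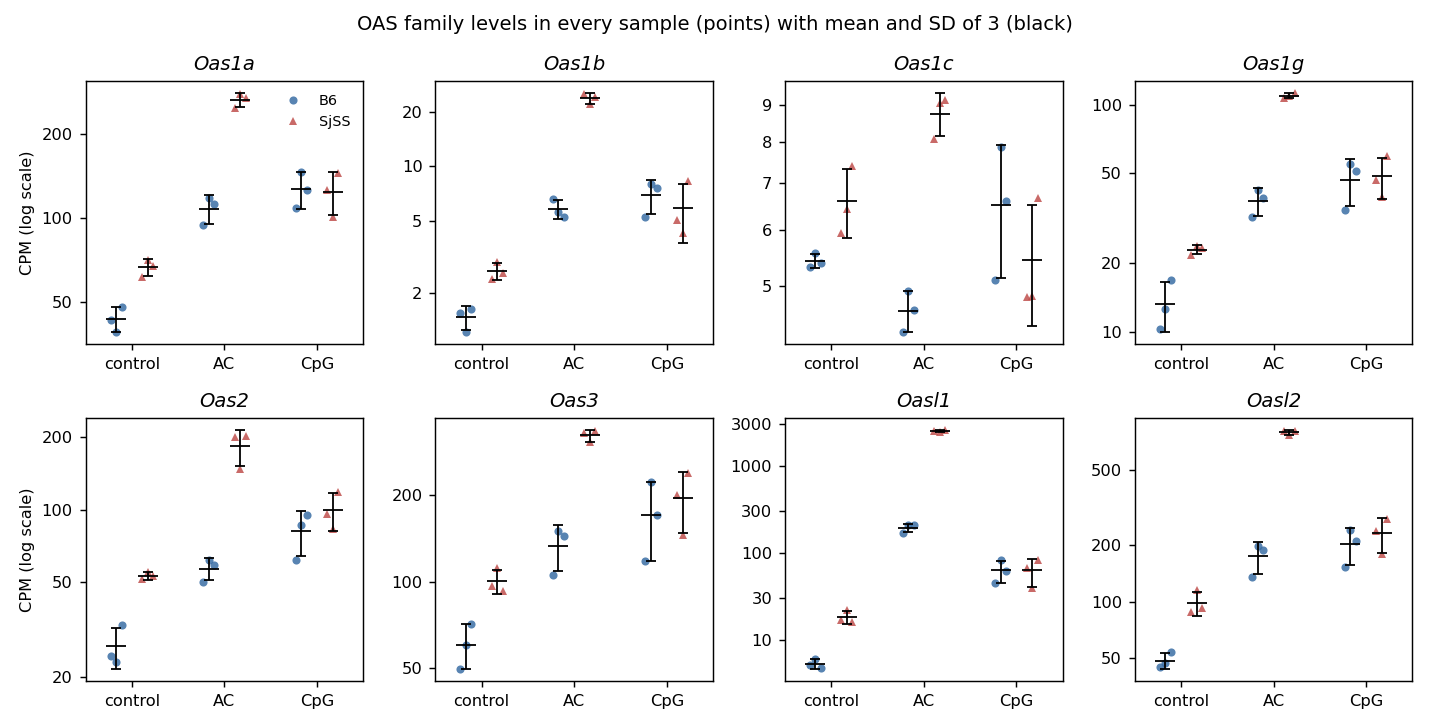
Levels of the 8 OAS members in CPM on a log axis, by condition, with circles for the B6 and triangles for the SjSS samples, and black bars for the mean and SD of 3. The SjSS AC samples stand above every other sample in all 8 panels, and with CpG the 2 strains overlap in each. The share of all genes with either trait was not counted.

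Feeding ACs to B6 macrophages raised most of the family. By adjusted p 7 of 8 members rose, against 20% of all genes tested, and 5 of 8 were called, against 2.43% of all genes. The 5 called were Oas1a, Oas1b, Oas1g, Oasl1 and Oasl2. Oas2 and Oas3 rose by log2 fold changes of 1.08 and 1.13, short of the fold threshold. Oas1a sat at the threshold, with a log2 fold change of 1.31 (SE 0.12, 95% interval 1.05 to 1.57), and it fell below that threshold to 1.24 without B6 control replicate 2 or B6 AC replicate 2, and to 1.28 without B6 AC replicate 3.

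Oasl1 rose far more than the rest in B6. From 4.69 to 6.01 CPM in the controls it went to 168, 207 and 205 CPM with ACs, a log2 fold change of 5.20 (SE 0.25, adjusted p = 2.23e-11), which placed it at rank 11 of the 15789 genes by fold change. Oasl2 reached 135, 197 and 188 CPM, a log2 fold change of 1.84 (SE 0.17, adjusted p = 9.2e-08). The 2 Oas-like genes, neighbours on the chromosome with coding sequences that are 60.1% identical, therefore rose to unlike degrees, with 95% intervals of 4.67 to 5.73 and 1.48 to 2.20. Oas1b averaged 1.46 ± 0.222 CPM in the controls and 5.81 ± 0.699 CPM with ACs (log2 fold change 1.98, SE 0.22, adjusted p = 6.91e-07). Oas1c, across the shared upstream sequence from Oas1b, had 5.33, 5.57 and 5.40 CPM in the controls and 4.31, 4.92 and 4.64 CPM with ACs. Its groups did not overlap but its log2 fold change of -0.23 did not pass the test (adjusted p = 0.236).

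In SjSS macrophages ACs raised all 8 members by adjusted p, against 28.6% of all genes tested, and 7 of 8 were called, against 7.09%. The median log2 fold change of the members was 2.12, beside -0.02 over all genes tested. Oas1c was the member not called, although it rose from 6.59 ± 0.738 to 8.76 ± 0.606 CPM (log2 fold change 0.41, SE 0.14, adjusted p = 0.0198). Its adjusted p was above 0.05 without SjSS control replicate 1 (0.0863) or 2 (0.0519), or SjSS AC replicate 2 (0.0584) or 3 (0.0605).

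Oasl1 reached 2467, 2449 and 2586 CPM in the SjSS AC samples. Set against the 16.0 to 21.6 CPM of the SjSS controls this was a log2 fold change of 7.12 (SE 0.27, adjusted p = 3.74e-14), or 139-fold, rank 36 of the 15789 genes. Of all the values of the family, these 3 stood highest, and the spread among them was small, 74.6 CPM (SD). Oasl2 reached 804, 763 and 807 CPM, a log2 fold change of 3.01 (SE 0.18, adjusted p = 2.64e-11). Oas1b reached 25.2, 22.0 and 24.3 CPM, a log2 fold change of 3.18 (SE 0.20, adjusted p = 9.41e-11), while its head-to-head neighbour Oas1c changed by 0.41.

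The catalytic Oas1 genes and the larger enzymes rose by less. Oas1a reached 247, 277 and 268 CPM (log2 fold change 1.99, SE 0.12), and Oas1g reached 107, 109 and 112 CPM (log2 fold change 2.25, SE 0.18). The Oas1 rows summed rose from 98.9 ± 6.54 to 407 ± 16.1 CPM (log2 fold change 2.04). Oas2 gave 201, 147 and 203 CPM, the second sample lying below the other two but above every sample of the other groups (log2 fold change 1.79, SE 0.16). Oas3 gave 327, 304 and 333 CPM (log2 fold change 1.68, SE 0.20).

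The AC response itself was larger in SjSS for most of the family. The interaction of strain and AC, the response in SjSS minus that in B6, was above 0 for all 8 members and passed the adjusted p for 7 of them, against 19.6% of all genes tested. Oasl1 was called, with a difference of 1.92 on the log2 scale (SE 0.32, adjusted p = 9.53e-05), against 4.76% of all genes. Oas1b differed by 1.20 (SE 0.30, adjusted p = 0.00348) and Oasl2 by 1.17 (SE 0.24, adjusted p = 0.00064). Oas1a (0.68), Oas1g (0.74), Oas2 (0.72) and Oas1c (0.64) differed by less and passed the adjusted p. Oas3 had a difference of 0.55 with a 95% interval of -0.03 to 1.12, which did not pass (adjusted p = 0.128) but did with a replicate block within strain (adjusted p = 0.0284) or with only the compared groups in the fit (adjusted p = 0.0242). With 1 sample left out 5 to 7 members passed. Oas1g was lost without B6 control replicate 3 (adjusted p = 0.0896) or B6 AC replicate 1 (adjusted p = 0.062), and Oas2 without either of these (adjusted p = 0.0675 and 0.052) or SjSS AC replicate 3 (adjusted p = 0.0501). For Oas1c the interaction joins a response of -0.23 in B6, which did not pass, to one of 0.41 in SjSS.

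**Figure D2:**
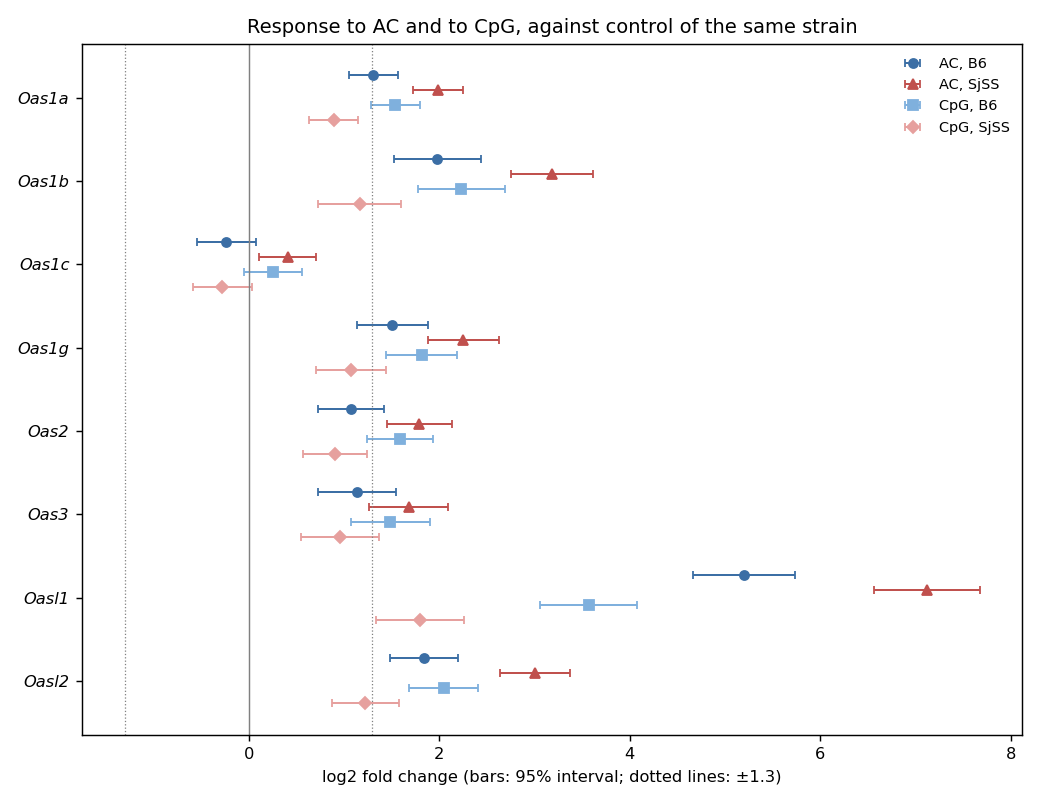
Log2 fold change of each OAS member against the control of the same strain, with 95% intervals; circles and triangles are the AC responses of B6 and SjSS, squares and diamonds their CpG responses, and dotted lines mark 1.3 in either direction. For every member except Oas1c the 4 responses lie above 0, and the AC response of SjSS is the farthest to the right.

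On the log2 scale the strain difference with ACs is by definition the resting difference plus the interaction of strain and AC. It is therefore not a finding separate from them. With ACs all 8 members were higher in SjSS than in B6 by adjusted p, against 24% of all genes tested, and 5 of 8 were called, against 6.24%. Oasl1 was 3.70 higher on the log2 scale (SE 0.22, adjusted p = 8.56e-11), or 13.0-fold. Oasl2 was 2.19 higher (SE 0.17), Oas1b 2.04 (SE 0.19), Oas2 1.69 (SE 0.16) and Oas1g 1.54 (SE 0.17). Oas1a and Oas3 were 1.29 and 1.27 higher, just under the fold threshold. Oas1c was 0.92 higher (SE 0.15, adjusted p = 3.55e-05). Beside these, the thymocyte and T cell markers summed to 4.37 to 4.95 CPM in the B6 AC samples and to 13.3 to 18.1 CPM in the SjSS AC samples. Of the 12 markers, Cd4, Lck, Cd3g and Trac averaged higher in the SjSS AC samples and the others lower. Cd4 averaged 3.57 CPM in B6 and 14.0 CPM in SjSS, and Lck 0.26 and 0.65 CPM. Only these 2 passed the filter on low counts, and both were higher in SjSS by adjusted p. Rag1 averaged 0.16 and 0.02 CPM, Dntt 0.12 and 0.01 CPM, and Themis was 0 in SjSS. The 4 fibroblast markers summed to 35.2 to 122 CPM over the 9 B6 samples and to 140 to 219 CPM over the 9 SjSS samples. The part of these RNAs, and of the strain of the thymocytes, in the strain differences was not tested.

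CpG gave another picture. In B6 it raised 7 of 8 members by adjusted p, against 28.1% of all genes tested, and all 7 were called, against 5.86%, and the median log2 fold change was 1.70. Oasl1 reached 44.8, 81.2 and 61.2 CPM, a log2 fold change of 3.57 (SE 0.24, adjusted p = 2.59e-10). Oas1b rose by 2.23 (SE 0.22), Oasl2 by 2.05 (SE 0.17), Oas1g by 1.82 (SE 0.18), Oas2 by 1.59 (SE 0.17), Oas1a by 1.54 (SE 0.12) and Oas3 by 1.49 (SE 0.20). The replicates were wider apart than with ACs, as for Oas3 at 118, 221 and 170 CPM. Oas1c gave 5.10, 7.85 and 6.61 CPM, overlapping its controls (log2 fold change 0.26, adjusted p = 0.14), and passed only without B6 CpG replicate 1 (adjusted p = 0.0194).

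In SjSS the same stimulus raised 7 of 8 members by adjusted p, against 27.8% of all genes tested, but only Oasl1 was called, against 4.81%. That count was 2 without SjSS control replicate 2 and 3 without SjSS CpG replicate 2. Oasl1 gave 65.6, 39.3 and 83.2 CPM, a log2 fold change of 1.80 (SE 0.22, adjusted p = 1.05e-06). The other 6 rose by between 0.89 (Oas1a) and 1.22 (Oasl2). Oas1c gave 4.84, 4.84 and 6.67 CPM, a log2 fold change of -0.27 that did not pass the test (adjusted p = 0.125) except without SjSS CpG replicate 3 (adjusted p = 0.0193) or with a replicate block within strain (adjusted p = 0.0474).

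With CpG the levels did not differ detectably between the strains. None of the 8 members passed the adjusted p in that comparison by edgeR's test, beside 10.2% of all genes tested that passed higher and 9.57% that passed lower in SjSS, none had an unadjusted p under 0.05, and DESeq2 called 0 as well, whereas edgeR called 2.61% of all genes in either direction. Without SjSS CpG replicate 3, Oas1b passed with a log2 difference of -0.56 (adjusted p = 0.0258). For all 8 members the samples of the strains overlapped, a description for which the share of all genes was not counted. Oasl1 averaged 62.4 ± 18.2 CPM in B6 and 62.7 ± 22.1 CPM in SjSS, a log2 difference of 0.01 with a 95% interval of -0.42 to 0.44. For Oas1a the interval was -0.29 to 0.22, for Oasl2 -0.15 to 0.54, and for Oas2, the member with the largest positive difference, -0.04 to 0.63. Differences as large as those measured with ACs lie outside these intervals for every member.

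Measured from the control of each strain, the CpG response of Oasl1 was smaller in SjSS, and for the other members the result changed with single samples. The interaction of strain and CpG was below 0 for all 8 members and passed the adjusted p for 4 of them, against 2.62% of all genes tested with a lower value. Oasl1 was called, at -1.77 (SE 0.32, adjusted p = 0.00259), against 0.329% of all genes called lower. Oas1b (-1.07, adjusted p = 0.0423), Oasl2 (-0.82, adjusted p = 0.0458) and Oas1a (-0.65, adjusted p = 0.0318) passed without reaching the fold threshold. Oas1g, Oas2, Oas1c and Oas3 had values of -0.74, -0.69, -0.53 and -0.53 and did not pass. Of these calls that of Oasl1 held with every sample left out in turn, whereas the count that passed the adjusted p ranged from 1 to 7. Oasl1 alone passed without B6 control replicate 1 or 2, SjSS control replicate 2 or 3, B6 CpG replicate 2, or SjSS CpG replicate 1 or 2, and 2 members passed without B6 CpG replicate 3. Without B6 control replicate 3 the count was 6, and without B6 CpG replicate 1 or SjSS CpG replicate 3 it was 7. With the replicate number as a block 6 members passed, and with only the compared groups in the fit 1 passed. This interaction and that with ACs share the control samples of both strains, as does the resting difference between strains, so the 3 are not independent of one another. For Oasl1 the strains differed by 0.01 with CpG and by 1.78 in controls, and for Oas1a by -0.03 and 0.61. The CpG interaction of these genes is thus largely the resting difference with its sign reversed, and not a separate finding.

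**Figure D3:**
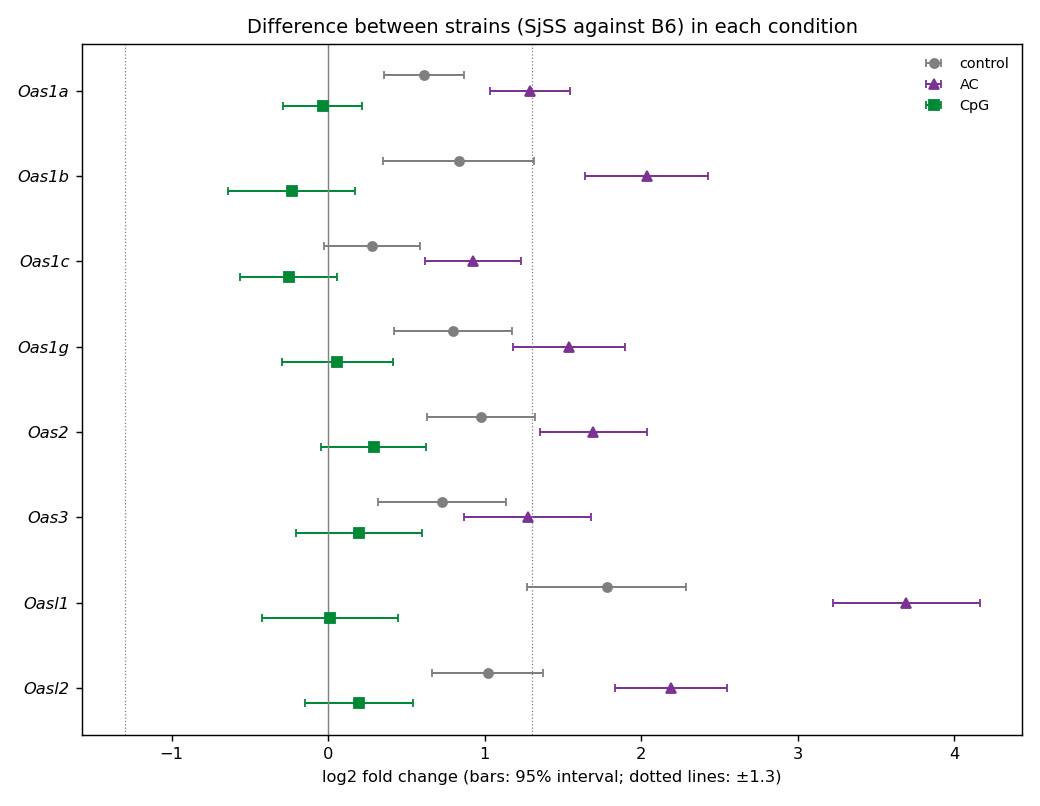
Log2 difference between strains, SjSS against B6, for each OAS member in control (circles), with ACs (triangles) and with CpG (squares), with 95% intervals and dotted lines at 1.3 in either direction. For the 8 members the CpG intervals all include 0 and the AC values lie farthest to the right.

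Between the 2 stimuli, Oasl1 parted from the other members. In B6 it was the only member called higher with ACs than with CpG (log2 difference 1.63, SE 0.21, adjusted p = 2.93e-06), against 3.64% of all genes tested. Oas2 (-0.51, adjusted p = 0.0133) and Oas1c (-0.49, adjusted p = 0.0105) were lower with ACs by adjusted p, against 22.4% of all genes. However, Oas2 did not pass without B6 CpG replicate 3 (adjusted p = 0.0747) or B6 AC replicate 1 (adjusted p = 0.0664), nor Oas1c without B6 CpG replicate 2 (adjusted p = 0.0804). The other 5 members overlapped between the stimuli, a description for which the share of all genes was not counted. With a replicate block within strain, Oas1g (-0.29, adjusted p = 0.0339) and Oas3 (-0.33, adjusted p = 0.0487) were lower with ACs as well. Without B6 CpG replicate 1, 5 members were lower with ACs by adjusted p. In SjSS all 8 were higher with ACs by adjusted p, against 25.7% of all genes, and 3 were called, against 5.38%. These were Oasl1 (5.32, SE 0.24), Oas1b (2.02, SE 0.19) and Oasl2 (1.78, SE 0.17).

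Put in order of level, 7 members followed 1 pattern. B6 control was lowest, SjSS control next and SjSS AC highest, with no overlap between SjSS AC and the group below it. The share of all genes tested with this order was not counted, so the order is a description and no further test. The 3 groups between, B6 AC and both CpG groups, overlapped with their neighbours for Oas1a, Oas1b, Oas1g, Oas3 and Oasl2. For Oas2 the SjSS control samples overlapped those of B6 AC (53.0 ± 1.94 and 56.7 ± 6.09 CPM), and for Oas3 likewise (100.2 ± 9.66 and 133 ± 23.8 CPM). For Oasl1 the B6 AC group, at 193 ± 22.1 CPM, stood above both CpG groups without overlap. Oas1c was lowest in B6 AC, and its means spanned 1.90-fold from the lowest to the highest group. The span was 475-fold for Oasl1, 16.3-fold for both Oas1b and Oasl2, 8.28-fold for Oas1g, 6.83-fold for Oas2, 6.07-fold for Oas1a and 5.31-fold for Oas3.

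Between genes, levels were compared per kilobase of the transcript with the longest coding sequence in GENCODE M21. In B6 controls Oas1a led the family with 23.1 CPM per kb and 32.8% of the sum of the 8, followed by Oasl2 (15.5 CPM per kb) and Oas3 (12.8 CPM per kb), while Oasl1 stood at 2.41 CPM per kb, 3.42% of the sum. As the split of reads between Oas1a and Oas1g is uncertain, so is the place of Oas1a in this order. In SjSS AC samples Oasl1 led with 1147 CPM per kb, 66.4% of the sum, ahead of Oasl2 (253 CPM per kb) and Oas1a (140 CPM per kb). In B6 AC samples Oasl1 held 33.0%, and in the CpG samples it held 11.6% in B6 and 10.9% in SjSS. The family summed to 70.5 CPM per kb in B6 controls and to 1727 CPM per kb in SjSS AC samples. Oas1b stayed between 0.79 and 13.0 CPM per kb, and Oas1c between 2.02 and 3.82 CPM per kb.

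With ACs, the other genes of the 2-5A pathway described here moved less than every member except Oas1c. The 4 described are Pde12, Akap7 and Enpp1, whose products can break 2-5A down, and Abce1, a factor in the recycling of ribosomes. None of the 4 was called with ACs in either strain, and with CpG 1 was called lower in each strain, Enpp1, which fell by 1.48 in B6 and by 1.42 in SjSS on the log2 scale. In SjSS that fall was larger in size than the CpG response of every member except Oasl1. Abce1 rose by adjusted p in all 4 responses, by 0.50 to 0.87, and Pde12 rose in all 4 by 0.23 to 0.46. Over all genes tested, 20% in B6 and 28.6% in SjSS rose by adjusted p with ACs, and 28.1% and 27.8% with CpG. With ACs 2 of the 4 fell by adjusted p in B6, Akap7 (-0.67) and Enpp1 (-0.63), and 1 in SjSS, Enpp1 (-0.42). The median log2 fold change of the 4 with ACs was -0.09 in B6 and 0.09 in SjSS.

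Interferon and ISGF3 genes moved with the synthetases in part. Ifnb1, which encodes interferon beta, gave 219, 259 and 216 counts in the SjSS AC samples (5.66, 5.45 and 4.85 CPM) and between 0 and 16 counts in each of the other 15 samples. Of 9 genes from Ifnb1 through the receptor and kinases to Usp18, 5 were called higher with ACs in SjSS and 3 in B6, and with CpG 1 in SjSS and 3 in B6. Ifnb1 was among those called with ACs in both strains. It passed the filter on low counts through the SjSS AC samples, so the filter favoured its SjSS call, which gives no further support. Its B6 call rests on 5, 16 and 5 counts with ACs and 0, 0 and 5 in controls. Over all genes tested, the shares called higher with ACs were 7.09% in SjSS and 2.43% in B6. With CpG they were 4.81% in SjSS and 5.86% in B6. The median log2 fold change of the 9 genes with ACs was 1.39 in SjSS and 0.86 in B6. Stat2 rose with ACs by 1.01 in B6 and 2.78 in SjSS on the log2 scale, and Irf9 by 0.86 and 1.39. Irf7, whose translation Oasl1 restrains, rose with ACs by 2.57 in B6 and 2.81 in SjSS. Its interaction of strain and AC was 0.24, beside the 1.92 of Oasl1. Usp18, the feedback inhibitor of interferon signalling, rose by 2.91 and 5.15 with ACs and by 4.07 and 2.00 with CpG, and it was the only gene of this list called in the interaction of strain and CpG (-2.07). In controls Usp18 was higher in SjSS by 1.54.

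**Figure D4:**
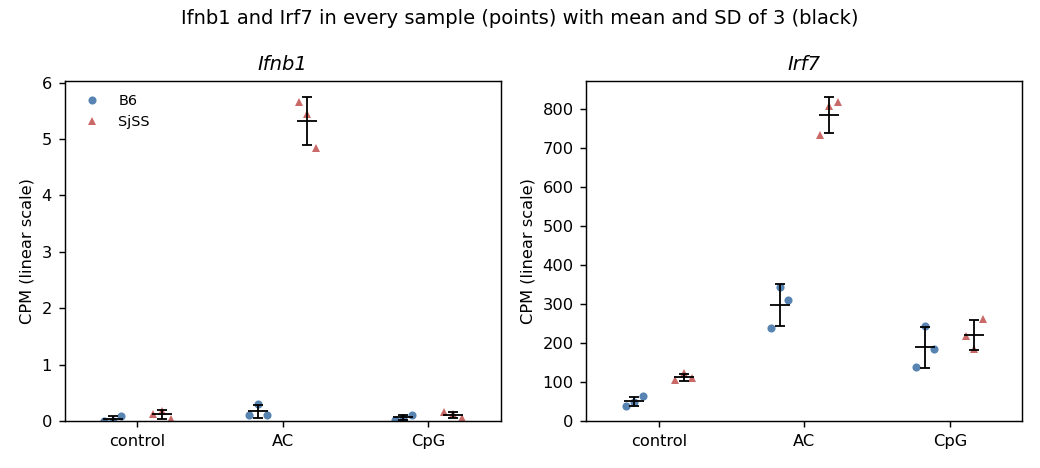
CPM of Ifnb1 and of Irf7 on linear axes from 0, by condition, with circles for B6 and triangles for SjSS samples and black bars for the mean and SD of 3. Ifnb1 lay between 4.85 and 5.66 CPM in SjSS with ACs and at or under 0.303 CPM in every other sample, while Irf7 was raised with ACs in both strains and lay between 732 and 817 CPM in SjSS with ACs.

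Other sensors and effectors of double-stranded RNA rose with ACs in both strains and by more in SjSS. Of 8 tested, 7 rose by adjusted p in each strain, and Mavs, the adaptor of the RNA helicases, rose by 0.14 in B6 and fell by 0.56 in SjSS on the log2 scale. With the fold threshold 7 were called higher in SjSS and 1 in B6, and 6 were called in the interaction of strain and AC. Over all genes tested, 7.09%, 2.43% and 4.76% were called higher in these comparisons. By adjusted p, 28.6% of all genes rose with ACs in SjSS and 20% in B6. Ifih1, which encodes MDA5, rose 2.46-fold in B6 and 24.9-fold in SjSS. The median log2 fold change of the 8 was 0.72 in B6 and 2.64 in SjSS. The log2 value of Tlr3 was 0.12 in B6, which did not pass the test, and Tlr3 rose by 2.74 in SjSS, and Eif2ak2, the kinase PKR, rose by 0.31 and 2.12. At rest none of these 8 was called between strains and 2 passed the adjusted p, both higher in SjSS, against 9.04% of all genes tested. With CpG none of the 8 was called between strains.

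Of 4 further Oas1 paralogs, Oas1d and Oas1h were in the table and Oas1e and Oas1f were not analysed here. Oas1h, the only one that passed the filter on low counts, was called higher with ACs in SjSS (log2 fold change 2.58, SE 0.80, adjusted p = 0.00963), in SjSS than in B6 with ACs (2.25, SE 0.76, adjusted p = 0.0193) and with ACs than with CpG in SjSS (2.34, SE 0.78, adjusted p = 0.0176). These rest on 16, 11 and 20 counts in the SjSS AC samples and on 0 to 9 in each other sample. Oas1h passed the filter through these SjSS AC samples, so the filter favoured these calls and they give no further support. Oas1h was highest in SjSS AC samples, at 0.364 ± 0.117 CPM, and Oas1d at 0.125 ± 0.0568 CPM.

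Likeness of pattern was measured as the root mean square difference of centred log2 CPM over the 6 group means, in log2 units, with up to 2 nearest genes that are not members named for each member. Among these non-members, the nearest gene to Oas1b was Trex1, a DNA exonuclease (0.0914), followed by Rtp4 (0.136), and Rtp4 was also the nearest of them to Oasl2 (0.185). The nearest to Oas1g was Ube2l6 (0.187), and those to Oasl1 were Rsad2 (0.425) and Ifit1bl1 (0.528), so that no gene outside the family lay as near to Oasl1 as these did to the other members. Over the 18 single samples, Trex1, Ube2l6, Rsad2 and, for Oasl2, Rtp4 were again the nearest non-members. Clec2d (0.143) was the second nearest to Oas1a over groups and the nearest of them over samples, and Dcbld2 (0.148) was the non-member nearest to Oas2 in both. Of the rest, 1700055D18Rik (0.16, Oas2) and Gm15440 (0.0524, Oas1c) fell to ranks 20 and 216 over samples. RP23-385F3.2 (Oas1a), Ptpn3 (Oas1c), Ptgs2os2 (Oas1g), Jam2 (Oas3) and Gm38025 (Oasl2) fell to ranks of 165 to 6505, and none of these 5 averaged above 1.03 CPM in any group. For Oas1g, Oas2 and Oasl2 another member lay nearer over groups than any gene outside the family. Among the members themselves, Oas3 was nearest to Oas1a (0.136) and to Oas2 (0.139), Oas1a to Oas1g (0.148), Oas1b to Oasl2 (0.165), and Oasl1 was far from all, with Oas1b the nearest at 1.61. The nearest member to Oas1c was Oas3 at 0.638. The split of reads between Oas1a and Oas1g is uncertain, and its part in their likeness was not tested.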

How the data were processed

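The members and gene lists were chosen with earlier results of these data known. The authors aligned reads with STAR to mm10 and quantified genes in Partek, whose expectation-maximization counting gives estimated counts; the deposited table holds these estimated counts for 20615 genes in 18 samples, and 41.1% of values were not whole (tolerance 1e-06). The submitters' processing notes also name DESeq2 3.13. Whether counting used strand is not given in the sources used here; the rows Gm13822, Gm43068 and Gm43069 overlap Oasl1, Oas2 and Oas1c on the opposite strand, at 0 to 46 counts per sample. Values were rounded to whole numbers, filtered with filterByExpr and fitted with edgeR 4.0.16 (R 4.3.3) as 6 group means with TMM scaling, over 11 comparisons. The SE is the log2 fold change divided by the square root of F. The text names the 8 members, the genes of the fixed lists and the 2 genes nearest to each member in pattern, except 3 genes that are not reported here and are left out of the list counts. Replicates of a group differed by more than sampling noise, so none were merged. On simulated data with 200 changed genes, edgeR recovered 185 with 4 false calls for the AC response in SjSS, and 168 with 3 false calls for the interaction of strain and AC. The changes were set in the SjSS AC samples only and all exceeded the fold threshold, so these rates do not apply to smaller effects. Alternatives were DESeq2 1.42.0 (Wald test, and its size factors in edgeR), no filter, no fold threshold, replicate blocks, the compared groups only, the Oas1 rows summed, and each sample left out. Promoters and lengths come from RefSeq GRCm38.p6 and GENCODE M21.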

Additional observations from a re-analysis of the deposited data

Results flagged for a closer look

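In 7 members the response to ACs differed between strains by the test of the interaction (quasi-likelihood test of edgeR, adjusted by Benjamini-Hochberg), with a larger value in SjSS. The differences on the log2 scale were 0.68 for Oas1a (adjusted p = 0.00414), 1.20 for Oas1b (adjusted p = 0.00348), 0.64 for Oas1c (adjusted p = 0.0188), 0.74 for Oas1g (adjusted p = 0.0224), 0.72 for Oas2 (adjusted p = 0.0187), 1.92 for Oasl1 (adjusted p = 9.53e-05) and 1.17 for Oasl2 (adjusted p = 0.00064). In 4 members the response to CpG differed between strains by the same test, with a smaller value in SjSS. These differences were -0.65 for Oas1a (adjusted p = 0.0318), -1.07 for Oas1b (adjusted p = 0.0423), -1.77 for Oasl1 (adjusted p = 0.00259) and -0.82 for Oasl2 (adjusted p = 0.0458). Those of Oas1a, Oas1b and Oasl2 with CpG did not pass when 1 of 7, 8 and 8 single samples was left out, and those of Oas1g and Oas2 with ACs when 1 of 2 and 3 was. Both sets use the same control samples, and with CpG the levels themselves did not differ detectably between strains. Outlying samples were not searched for, because that search needs groups of 4 or more and every group here held 3.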

How the results depend on the processing

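Without the fold threshold the members called were 7 for CpG in SjSS, 7 between strains in control, 8 between strains with ACs, 7 and 4 for the interactions with AC and CpG, and 3 and 8 for AC against CpG in B6 and SjSS. Leaving out 1 sample gave 1 to 3 members for CpG in SjSS (2 without SjSS control replicate 2, 3 without SjSS CpG replicate 2), 1 to 2 for the AC interaction (2 without B6 control replicate 2 or B6 AC replicate 1) and 1 to 2 for the CpG interaction (2 without SjSS CpG replicate 3); the cause was not tested. For the summed Oas1 rows, dropping the fold threshold added calls at 1.29 (AC, B6), 0.89 (CpG, SjSS), 0.63 (strains in control), 0.75 and -0.66 (interactions with AC and CpG) and 1.15 (AC against CpG, SjSS), and leaving out samples gave 1.23 to 1.39 for AC in B6, 1.296 to 1.45 between strains with ACs and -0.17 to 0.10 between strains with CpG. The strain difference with CpG lay near 0 and changed sign for Oas1a (-0.16 to 0.091), Oas1g (-0.12 to 0.19), Oas3 (-0.0084 to 0.43) and Oasl1 (-0.25 to 0.26) with a sample left out, for Oas1g with the Oas1 rows summed (-0.027), and for Oasl1 with DESeq2's size factors (-0.011) and its Wald test (-0.014). In place of Oas1c, the summed rows gave 1.29 for AC in B6 and 0.89 for CpG in SjSS. Oas1a and Oas3 between strains with ACs passed 1.3 by DESeq2 (1.32 and 1.302). Oas3 with CpG in B6 fell to 1.25 without B6 CpG replicate 2. Same-numbered samples did not pair by the rule (correlation of deviations over 0.1 in 9 of 18 pairs within strains and 0 of 9 between), though within strains a sample correlated best with its own number in 32 of 36 comparisons with another group. The replicate block left the members called at 5 for AC in B6 and 7 in SjSS, and a replicate block within strain gave 4 and 7, Oas1a in B6 falling to 1.2996, just under the threshold. By adjusted p alone, both blocks gave 6 members in place of 4 for the CpG interaction, and the block within strain 8 in place of 7 for the AC interaction and 4 lower in place of 2 for AC against CpG in B6. Of 1260 member values under alternatives, 1181 kept direction and side of the threshold. Depth limits Oas1b and Oas1c most, with 6257 and 5243 counts over all samples.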
